A study of Mus musculus with 27 samples.

Results

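Liver gene expression at 10 µg/kg TCDD was set against that at 3 µg/kg, the next lower dose of the series. TCDD is a chlorinated dioxin that the body clears slowly. The comparison holds 6 of the 27 sequenced livers, chosen by their dose labels alone: 3 livers at 10 µg/kg and 3 at 3 µg/kg. All mice were ovariectomized C57BL/6 females with an age label of 120 days, dosed by gavage every 4 days over 92 days, and the vehicle group received sesame oil on the same schedule. A protocol line also calls the gavage daily. Groups are described as biological replicates, so each library was taken as the liver of a separate mouse. The series title names metabolic reprogramming and fibrosis as its subject, and this dose step asks which genes still moved when exposure rose from 3 to 10 µg/kg. There is no unexposed group in the comparison, so a difference is between a lower and a higher exposure.

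TCDD binds the aryl hydrocarbon receptor (AhR), a ligand-activated transcription factor that enters the nucleus, pairs with ARNT and binds DNA at response elements with the core GCGTG. Its best known targets are the cytochrome P450 genes Cyp1a1, Cyp1a2 and Cyp1b1, together with Nqo1, the repressor gene Ahrr and Tiparp. In rodents, prolonged TCDD exposure is known for wasting, a fatty liver, inflammation and fibrosis.

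Reads per gene were deposited as whole counts. The 3 µg/kg libraries held 12152407, 11050391 and 25095297 counts on genes and the 10 µg/kg libraries 25105746, 19999504 and 21020124. Their 10 most abundant genes took 20.2% to 24.4% of the counts, and the 6 libraries carried 6 different index sequences. Alb, the serum albumin gene that defines hepatocytes, stood between 84533 and 124019 CPM in all 6 (CPM, counts scaled to a common library size after TMM normalization). Log2 fold changes are 10 over 3 µg/kg from edgeR's quasi-likelihood fit of all 27 libraries, with standard error (SE). A gene was called, that is said to have risen or fallen, at a Benjamini-Hochberg adjusted p below 0.05 over the 15121 genes tested.

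The response element core was looked up in the 300 bases around the start (250 before, 50 after) of the 3 largest rises and 3 largest falls among named genes matched in the promoter table, because these sequences show how the most altered genes look at the place where a receptor site might lie. Nipal2 and St14, the next largest rises after Ecel1, were not matched. Of the 6 promoters taken (Ecel1, Sapcd2 and Rtn4rl2 among the rises, Hao1, Sult3a1 and Mmd2 among the falls), Mmd2 alone held GCGTG on either strand, 99 bases before its start. The promoters are those of RefSeq on GRCm38.p6, all 3 shown lie on the minus strand, and capitals mark the core. They span chr1:87156307-87156606 for Ecel1, chr2:134554303-134554602 for Hao1 and chr5:142608703-142609002 for Mmd2.
Ecel1: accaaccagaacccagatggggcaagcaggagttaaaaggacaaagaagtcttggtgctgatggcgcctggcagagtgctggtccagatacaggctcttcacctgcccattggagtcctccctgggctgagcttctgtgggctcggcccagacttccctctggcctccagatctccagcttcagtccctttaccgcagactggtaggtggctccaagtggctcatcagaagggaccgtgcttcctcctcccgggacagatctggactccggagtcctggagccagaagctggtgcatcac
Hao1: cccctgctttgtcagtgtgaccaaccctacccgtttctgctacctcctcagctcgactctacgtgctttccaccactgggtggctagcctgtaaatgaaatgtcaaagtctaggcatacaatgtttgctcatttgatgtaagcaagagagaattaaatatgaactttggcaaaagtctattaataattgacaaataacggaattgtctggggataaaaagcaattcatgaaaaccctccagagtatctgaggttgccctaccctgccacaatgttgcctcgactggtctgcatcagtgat
Mmd2: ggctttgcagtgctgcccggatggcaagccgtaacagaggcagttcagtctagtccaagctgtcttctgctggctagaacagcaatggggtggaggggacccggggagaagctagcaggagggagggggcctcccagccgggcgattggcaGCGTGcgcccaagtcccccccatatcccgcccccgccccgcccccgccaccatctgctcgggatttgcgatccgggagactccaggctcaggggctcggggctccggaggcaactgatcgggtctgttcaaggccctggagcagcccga

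Over promoters of the same length, the core stood in 32.4% of all 32851 in the table and in 47.8% of those of genes tested. It stood in 31.7% of the 82 promoters matched to genes that rose and in 21.8% of the 55 matched to genes that fell. Promoters of tested genes averaged 59.9% GC, those of the risen genes 60.0% and those of the fallen genes 54.1%. A match is only the presence of these letters in the window.

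Between the doses 160 genes were called, 1.06% of those tested. Of these, 102 rose (0.675%) and 58 fell (0.384%). Without any correction 11.3% of genes had p below 0.05. Rises were larger than falls and started from lower levels: the genes that rose went from a median of 1.77 to 9.13 CPM, with a median 4.26-fold change, and those that fell from 15.1 to 6.35 CPM, with a median 2.50-fold change. At least 2-fold changes made up 91 of the rises and 42 of the falls, and at least 8-fold changes 27 and 7. The 6 livers of the comparison fell into non-overlapping groups for 101 of the 102 genes that rose and 57 of the 58 that fell, beside 21.1% of all genes tested. The calls were made on these same livers, so this separation adds no support to them. Single livers weighed on the total: it was 75, 95 and 73 without the first, second or the third 3 µg/kg liver and 71 without the third 10 µg/kg liver. The count of falls was 22 or 23 without the first or the third 3 µg/kg liver and 35, 32 and 16 without the first, second or the third 10 µg/kg liver. The count of rises was 53, 56 and 50 without each 3 µg/kg liver in turn and 55 without the third 10 µg/kg liver. Whichever of the 6 was left out, 52 genes were called.

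**Figure D1:**
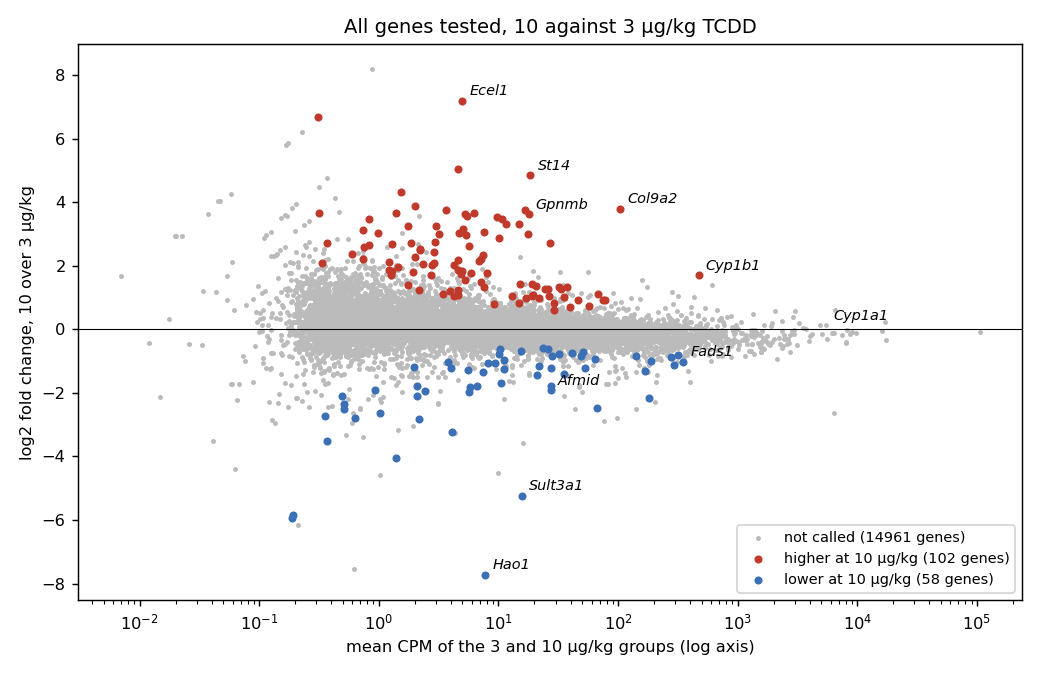
Log2 fold change (10 over 3 µg/kg) against the mean CPM of both groups on a log axis, with 1 point per gene tested. Red points are the 102 genes that rose, blue the 58 that fell and grey those not called. Hao1 lies lowest among the called genes at -7.73 and Ecel1 highest at 7.20, while Cyp1a1 lies near 0 at a high level.

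The 30 µg/kg and vehicle livers share no library with this comparison. Both comparisons came from the same fit of all 27 libraries, however, with the same spread for each gene, scaling and low-count filter. A gene with a low estimated spread is favoured in both, so the overlap below is not an independent test of the calls. Of the 102 genes that rose from 3 to 10 µg/kg, 98 (96.1%) were also called higher at 30 µg/kg than in vehicle, beside 18% of all genes tested. Of the 58 that fell, 55 (94.8%) were called lower, beside 19.4% of all genes, and 0 were called in the opposite direction in either set. Among the 4 rises not called there was Smo, the hedgehog signal transducer gene, at 7.67 CPM in vehicle and 7.24 CPM at 30 µg/kg. The others were Cntnap1, Fam189a1 and Gm4540, a processed pseudogene. The 3 falls not called there were Lrtm1, Trhde and Mup12. Each of these 7 genes lost its call between 10 and 3 µg/kg without 4 or more of the 6 livers in turn, with adjusted p up to 0.317. This comparison with 30 µg/kg and these names were chosen after values were seen.

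Several of the 12 largest rises were in genes that were near silence at 3 µg/kg, although Col9a2 started from 13.5 to 14.5 CPM. Ecel1, which encodes a neuronal metalloprotease related to endothelin-converting enzyme, was at 0.0815, 0.0882 and 0.0385 CPM at 3 µg/kg, against 7.28, 9.79 and 12.5 CPM at 10 µg/kg. Its counts summed to 3 and 725, a ratio of pooled counts of 159 after scaling to library size (exact 95% interval 54.3 to 774, counting error only), with an adjusted p of 6.78e-08. Every liver at 10 µg/kg stood far above every liver at 3 µg/kg. St14, the gene of the epithelial membrane protease matriptase, went from 1.06, 1.15 and 1.43 CPM to 19.2, 35.5 and 52.8 CPM (log2 fold change 4.84, SE 0.43, adjusted p = 2.37e-07). Nipal2, a gene of the NIPA family of magnesium transporters, went from 0.163, 0.353 and 0.270 CPM to 3.27, 9.14 and 14.2 CPM (log2 fold change 5.05, SE 0.58, adjusted p = 8.34e-06). In St14 and Nipal2 alike the first 10 µg/kg liver was the lowest and the third the highest of its group.

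Col9a2 (ENSMUSG00000028626, GRCm38 chromosome 4 from 121039385 to 121055322), a chain of the cartilage collagen IX, had the highest CPM, which is not scaled to gene length, of the 12 largest rises. It was tightly grouped at 13.5, 14.5 and 13.8 CPM at 3 µg/kg. It reached 125, 211 and 242 CPM at 10 µg/kg (log2 fold change 3.79, SE 0.28, adjusted p = 5.49e-09). At lower doses it averaged 0.022 ± 0.038 CPM (0.3 µg/kg, SD, n = 3) and 0.77 ± 0.26 CPM (1 µg/kg, SD, n = 3). The second 0.3 µg/kg library was shallow, with 434011 counts on genes. Its 0 counts of Col9a2 cannot resolve a level this low. Sapcd2 moved from 0.163, 0.0882 and 0.154 CPM to 1.4, 3.29 and 4.13 CPM (log2 fold change 4.33, adjusted p = 2.36e-05). Rtn4rl2, a Nogo receptor homolog, had no counts in the second 3 µg/kg liver and at most 0.347 CPM in the others, against 2.18 to 6.62 CPM at 10 µg/kg (3.88, adjusted p = 0.000835). Fbxl16, an F-box protein gene, rose from 0.529 to 1.00 CPM to 8.08 to 12.1 CPM (3.62, adjusted p = 3.47e-06), and Cd163l1, of the scavenger receptor cysteine-rich family, from at most 0.265 to at least 2.23 CPM (3.66, adjusted p = 0.000454). All these calls held when any 1 of the 6 livers was left out.

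Amn, Nbl1, Ly6d and Gpnmb varied more between livers. Amn encodes amnionless, the partner of cubilin in vitamin B12 uptake, and was at 0.978, 0.529 and 0.154 CPM at 3 µg/kg, against 2.34, 5.19 and 12.6 CPM at 10 µg/kg (log2 fold change 3.76, SE 0.63, adjusted p = 0.0015). Nbl1, a secreted antagonist of bone morphogenetic proteins, was at 0.245, 0.617 and 1.5 CPM and 4.44, 17.3 and 13.3 CPM (3.67, SE 0.46, adjusted p = 4.36e-05). Ly6d, a GPI-anchored surface protein gene of keratinocytes and lymphoid progenitors, went from 1.14, 2.82 and 2.81 CPM to 12.4, 21.5 and 60.1 CPM (3.75, SE 0.77, adjusted p = 0.0172). Its call was lost without the first, second or the third 3 µg/kg liver (adjusted p = 0.11, 0.0722 and 0.104) and without the third 10 µg/kg liver (0.129). Gpnmb, a lysosomal glycoprotein of macrophages, went from 1.63, 4.41 and 2.20 CPM to 19.7, 20.6 and 58.4 CPM (3.62, SE 0.74, adjusted p = 0.0163), a call lost without the first or the third 3 µg/kg liver (0.106 and 0.13) or the third 10 µg/kg liver (0.114). All 4 missed the threshold in a fit of the 6 libraries alone, with adjusted p of 0.128 for Amn, 0.0889 for Nbl1, 0.111 for Ly6d and 0.0657 for Gpnmb. Ly6d and Gpnmb also missed it in the 12 libraries of the 0.3 to 10 µg/kg groups alone (0.208 and 0.176). The third 10 µg/kg liver was the highest for Amn, Ly6d and Gpnmb.

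**Figure D2:**
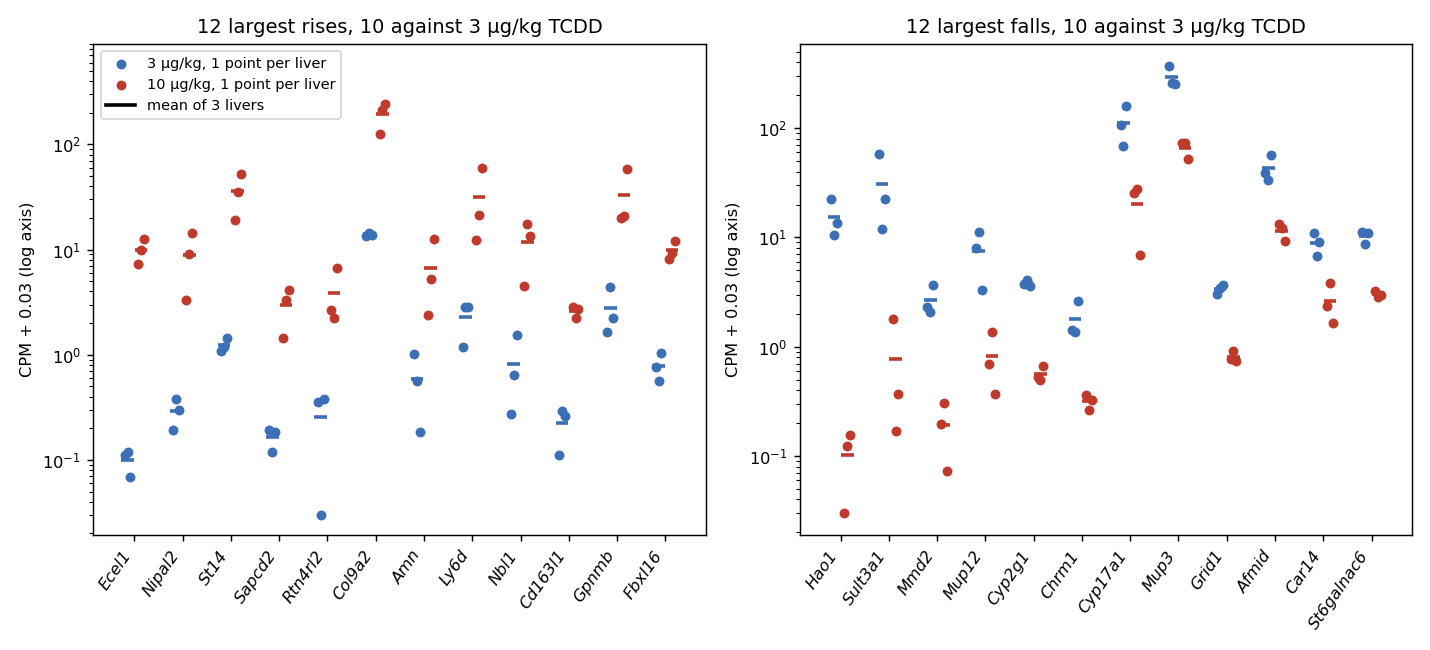
CPM in each liver, with 0.03 added, on a log axis, for the 12 largest rises (left) and 12 largest falls (right) among called, non-overlapping genes that averaged 1 CPM or more. Blue points are the 3 livers at 3 µg/kg, red points the 3 at 10 µg/kg, and short lines their means. Col9a2 and Cyp17a1 lie above 1 CPM in all 6 livers, while Ecel1 and Hao1 lie near the bottom of the axis in 1 of the groups.

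Hao1 (ENSMUSG00000027261, GRCm38 chromosome 2 from 134497361 to 134554368) had the largest fall. It encodes the peroxisomal glycolate oxidase of hepatocytes, which turns glycolate into glyoxylate. It was at 22.5, 10.5 and 13.4 CPM at 3 µg/kg, and at 0, 0.0928 and 0.127 CPM at 10 µg/kg, with 744 counts in the first group and 5 in the second. The log2 fold change was -7.73 (SE 0.48, adjusted p = 2.47e-10), and the call held without any 1 liver (adjusted p at most 1.81e-08). Along the doses its group means were 148 ± 23 CPM at 0.3 µg/kg, 70.4 ± 23 CPM at 1 µg/kg, then 15.5 ± 6.3 CPM at 3 µg/kg (SD, n = 3 each), and the level at 30 µg/kg was 0.0676 ± 0.063 CPM. Of the glycolate and glyoxylate list Hao1 was the 1 called member of 9, and 8 of the 9 were at or below a log2 fold change of 0, with a median of -0.46. Over all genes tested 0.384% were called lower, 51.0% lay above 0 and the median was 0.01. Hao1 was already named as the largest fall, so its call is no result about the list.

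Sult3a1, an amine sulfotransferase gene, was at 58.1, 11.8 and 22.3 CPM at 3 µg/kg, against 1.77, 0.139 and 0.337 CPM at 10 µg/kg. The groups did not overlap, although its livers spread widely within each group (log2 fold change -5.23, SE 1.08, adjusted p = 0.018). That call was lost without the first 3 µg/kg liver (adjusted p = 0.0936) or the second or the third 10 µg/kg liver (0.0867 and 0.154). It was also lost in the 6 libraries alone (0.102) and in the 12 libraries of the 0.3 to 10 µg/kg groups alone (0.0696). Cyp17a1, the steroid hydroxylase and lyase gene, was at 106, 69.0 and 161 CPM against 25.7, 27.8 and 6.92 CPM (-2.48, SE 0.53, adjusted p = 0.0215). Up to 3 µg/kg its group means had ranged from 64.5 to 166 CPM. The Cyp17a1 call was lost without the first or the third liver of either dose (adjusted p from 0.0516 to 0.135). Fits of the 6 libraries alone and of those 12 libraries alone lost it too (0.158 and 0.194). Mmd2, a membrane receptor gene of the PAQR family, went from 2.28, 2.03 and 3.62 CPM to 0.167, 0.278 and 0.0422 CPM (-4.05, SE 0.85, adjusted p = 0.018). Its call did not hold without the third 3 µg/kg liver (0.15) or without the first, second or the third 10 µg/kg liver (0.0837, 0.0512 and 0.147).

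The other large falls included 3 whose livers lay close together. Cyp2g1, a P450 gene best known from olfactory tissue, went from 3.75, 4.06 and 3.54 CPM to 0.501, 0.464 and 0.633 CPM (log2 fold change -2.81, SE 0.40, adjusted p = 0.000184). Grid1, a delta glutamate receptor subunit gene, went from 3.02, 3.44 and 3.62 CPM to 0.735, 0.881 and 0.717 CPM (-2.11, SE 0.36, adjusted p = 0.00174). St6galnac6, a ganglioside sialyltransferase gene, fell from 8.73 to 11.3 CPM to 2.83 to 3.21 CPM (-1.78, SE 0.18, adjusted p = 8.12e-07). In these 3 genes each call held without any 1 liver. Car14, a membrane carbonic anhydrase gene, fell from 6.70 to 10.9 CPM to 1.6 to 3.80 CPM (-1.80, adjusted p = 0.000999). A gene on the other strand overlaps 17.5% of its exonic bases, and how the counting used strand is not given in the sources used here. Chrm1, the M1 muscarinic receptor gene, fell from 1.32 to 2.58 CPM to 0.232 to 0.334 CPM (-2.62, adjusted p = 0.006), a call lost without the third 3 µg/kg liver (0.109).

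The major urinary protein genes Mup12 and Mup3 completed the largest falls. Mup3 was at 368, 259 and 255 CPM against 73.3, 73.3 and 52.2 CPM (log2 fold change -2.15, adjusted p = 0.04995). Mup12 was at 7.99, 11.1 and 3.27 CPM against 0.668, 1.35 and 0.337 CPM (-3.24, adjusted p = 0.0489). Both calls were lost whichever of the 6 livers was left out (adjusted p up to 0.317). The family holds near-identical copies between which reads cannot be assigned with certainty, so their values are uncertain. Mup3 also lost its call with RLE (0.0502) or upper-quartile factors (0.0522).

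**Figure D3:**
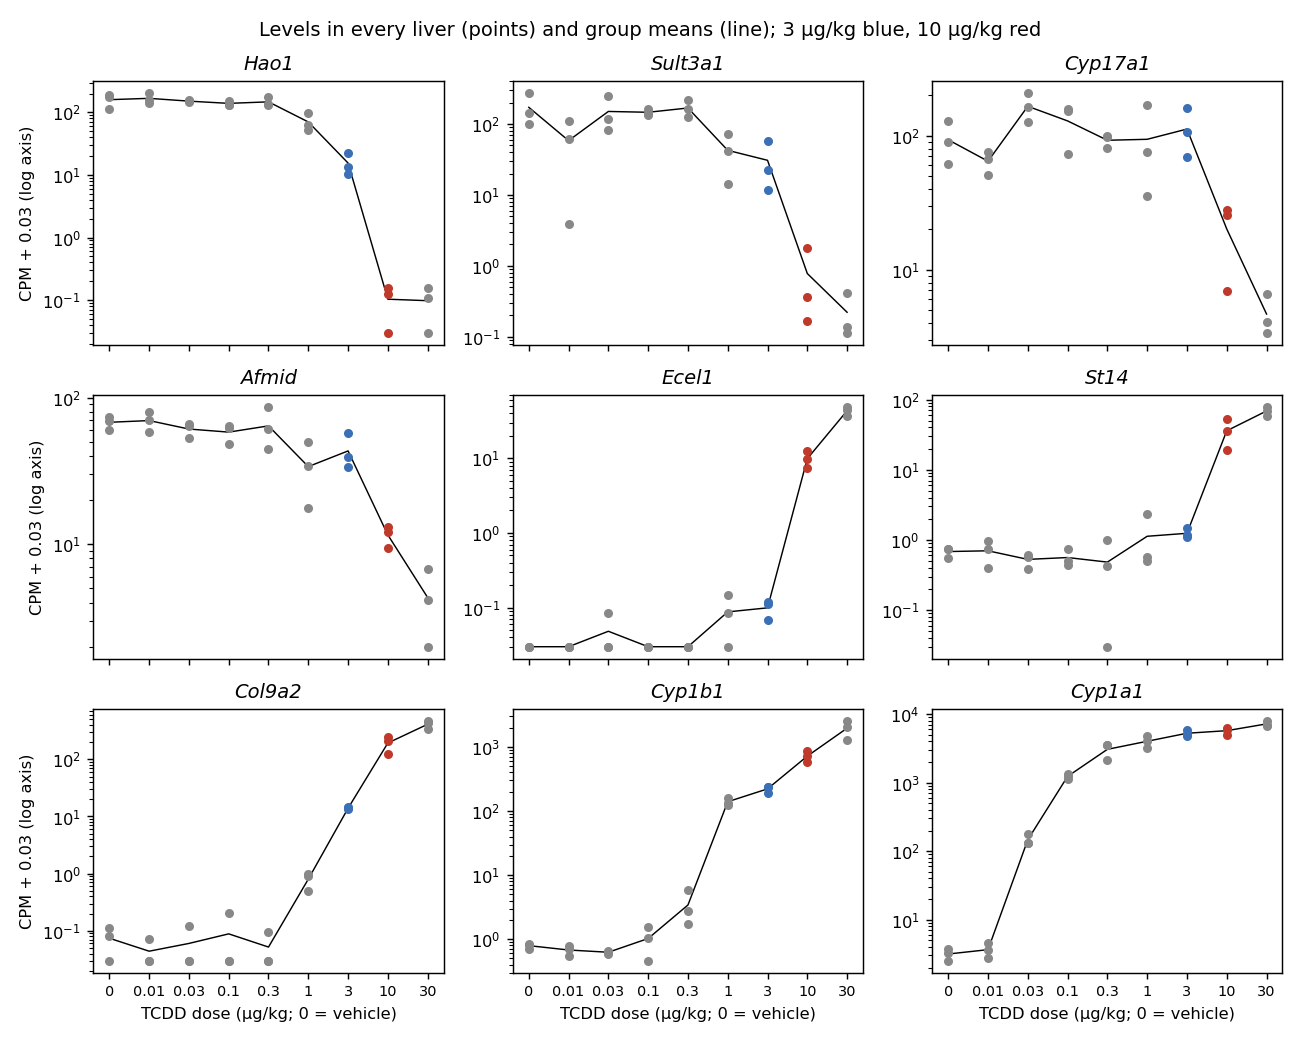
CPM with 0.03 added, on a log axis, against the dose of TCDD, for 9 genes in all 27 livers. Points are livers (3 µg/kg blue, 10 µg/kg red), and lines join group means. Ecel1 and St14 lie near their vehicle levels up to 3 µg/kg and are far higher at 10 µg/kg, Hao1 lies near the bottom of the axis at 10 and 30 µg/kg, and Cyp1a1 is nearly level between 3 and 10 µg/kg. The second 0.3 µg/kg library held only 434011 counts, so its values for genes of low level are uncertain.

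Among the 14 members of the AhR target battery, 2 rose and 0 fell, with 12 of 14 above a log2 fold change of 0 (51.0% of all genes tested were) and a median of 0.53 (0.01 over all genes). The shares to set beside this and every later list are those over all genes tested. They were 0.675% called higher, 0.384% called lower, 51.0% above 0 and 11.3% at unadjusted p below 0.05 (edgeR). DESeq2 called 238 of 15121 genes, 143 of them higher, and edgeR on the 6 libraries alone called 341 of 14164. Cyp1b1, the P450 that oxidizes estradiol and polycyclic hydrocarbons, went from 192, 240 and 233 CPM to 581, 727 and 850 CPM (log2 fold change 1.70, SE 0.25, adjusted p = 0.000219), a call that held without any 1 liver. Tiparp, a mono-ADP-ribosyltransferase that acts back on the receptor, went from 21.7, 21.9 and 20.1 CPM to 44.9, 50.7 and 65.7 CPM (1.34, SE 0.26, adjusted p = 0.00797). Its call was lost without the third 3 µg/kg liver (0.0529) or the third 10 µg/kg liver (0.0688).

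The 2 members with the highest CPM were not called. Cyp1a1 was at 4803, 5809 and 5170 CPM at 3 µg/kg, against 4941, 6381 and 5885 CPM at 10 µg/kg, with overlapping groups (log2 fold change 0.12, SE 0.22, adjusted p = 0.924). Cyp1a2, its caffeine-oxidizing neighbour, was at 15371, 16227 and 14984 CPM against 14422, 20739 and 20005 CPM (0.24, SE 0.22, adjusted p = 0.774). Nqo1, the quinone reductase, was at 48.4, 53.3 and 58.7 CPM against 71.1, 92.0 and 98.7 CPM (0.71, SE 0.18, adjusted p = 0.0593), and passed with RLE factors (0.0452), with upper-quartile factors (0.0397), in DESeq2 (0.0212), without a low-count filter (0.0444), in the 6 libraries alone (0.0374), without the 1 µg/kg group (0.0459) and without the first 10 µg/kg liver (0.0341). Ahrr was at 35.6, 44.1 and 45.4 CPM against 67.9, 54.7 and 68.5 CPM (0.61, SE 0.20, adjusted p = 0.154). The groups of Nqo1 and Ahrr did not overlap.

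Among the remaining battery members, the NRF2 gene Nfe2l2 had a log2 fold change of 0.37 (adjusted p = 0.325), the fatty acid transporter gene Cd36 0.45 (0.518), the pyruvate dehydrogenase kinase gene Pdk4 0.96 (0.793) and the glutathione transferase gene Gsta1 0.88 (0.786). Aldh3a1, an aldehyde dehydrogenase of the cornea, stood at no more than 0.506 CPM in any liver (1.68, adjusted p = 0.336). Ugt1a6a and Ugt1a6b, glucuronosyltransferase genes that share 50.3% and 60.6% of their exonic bases with other genes of the same strand and so have uncertain counts, had -0.19 and 0.09 (adjusted p = 0.844 and 0.949). Ahr itself was at 33.3, 31.7 and 36.7 CPM against 48.3, 28.1 and 45.2 CPM (0.26, adjusted p = 0.715) and Arnt at 41.1 to 46.4 against 35.3 to 39.1 CPM (-0.21, adjusted p = 0.612). Of the 9 genes of the receptor complex 0 were called by edgeR or DESeq2, and 0 had an unadjusted p below 0.05.

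Of 19 genes of the NRF2 and glutathione list, which defend against oxidants, 2 rose and 0 fell, with a median log2 fold change of 0.36. Gpx2, a glutathione peroxidase of the gut lining, went from 0.815, 2.20 and 1.73 CPM to 6.35, 13.3 and 20.6 CPM (3.07, SE 0.55, adjusted p = 0.0036). Its call was lost in the 12 libraries of the 0.3 to 10 µg/kg groups alone (0.0649). Cbr3, a carbonyl reductase, went from 0.652, 1.68 and 0.539 CPM to 1.47, 4.87 and 7.97 CPM, and its groups overlapped (2.42, SE 0.56, adjusted p = 0.0326). The Cbr3 call was lost without the first or the third 3 µg/kg liver (0.167 and 0.26) or the second or the third 10 µg/kg liver (0.075 and 0.264). It was also lost in the 6 libraries alone (0.189), in those 12 libraries alone (0.159) and without a low-count filter (0.079). Ephx1, the microsomal epoxide hydrolase gene, stood at 562, 707 and 620 CPM against 721, 842 and 870 CPM (0.36, adjusted p = 0.483).

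The conjugation list of glucuronosyl- and sulfotransferases had 2 of 19 members lower and 0 higher, 18 of 19 at or below a log2 fold change of 0 and a median of -0.59. Beside Sult3a1, the sulfotransferase gene Sult1c2 fell from 6.36, 9.17 and 8.01 CPM to 2.54, 4.64 and 2.57 CPM (-1.28, SE 0.29, adjusted p = 0.0245), a call lost without the second or the third 3 µg/kg liver (0.125 and 0.12) or the first or the third 10 µg/kg liver (0.12 and 0.211). Summed over the list, the livers held 4597 to 4954 CPM at 3 µg/kg, against 3511 to 3646 CPM at 10 µg/kg. Of 39 Cyp2, Cyp3a and Cyp4 genes 0 were called by edgeR and 1 by DESeq2, with 13 at unadjusted p below 0.05 and a median of -0.42. The ethanol-oxidizing Cyp2e1 was at 9774, 9994 and 7966 CPM against 7403, 7082 and 6279 CPM (-0.42, adjusted p = 0.609), and Cyp3a11, a main drug-oxidizing P450, at 1908, 3068 and 2214 CPM against 2495, 3515 and 4686 CPM (0.57, adjusted p = 0.335). Of 17 glutathione transferases 0 were called by either tool (5 at unadjusted p below 0.05, median -0.17).

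Bile acid synthesis had 3 members lower and 0 higher among 18, with a median log2 fold change of -0.37. Cyp27a1, the mitochondrial sterol hydroxylase of the alternative pathway, fell from 417, 403 and 384 CPM to 224, 254 and 212 CPM (-0.80, SE 0.18, adjusted p = 0.018). Cyp2c70, which makes the muricholic acids of mice, fell from 454, 411 and 343 CPM to 160, 249 and 143 CPM (-1.13, SE 0.26, adjusted p = 0.0286). Akr1d1, the steroid reductase that sets the bent ring of bile acids, fell from 224, 238 and 282 CPM to 114, 156 and 105 CPM (-0.99, SE 0.24, adjusted p = 0.0432). The groups were clearly apart in all 3 genes. None of the 3 calls held without the first, second or the third 3 µg/kg liver or the first or the third 10 µg/kg liver (adjusted p between 0.0516 and 0.314). Fitting the 12 libraries of the 0.3 to 10 µg/kg groups alone left 0 members called. Slc27a5, the bile acid CoA ligase gene, was at 886, 1097 and 1095 CPM against 675, 820 and 641 CPM (-0.53, adjusted p = 0.265). Of 16 bile acid and anion transporters 0 were called by edgeR, against 2 by DESeq2, of which 1 was higher, and 7 had an unadjusted p below 0.05 (median -0.34).

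Fads1, the desaturase that completes arachidonic and eicosapentaenoic acid, fell from 427, 500 and 470 CPM to 271, 214 and 207 CPM (log2 fold change -1.01, SE 0.17, adjusted p = 0.00115). It kept its call without any 1 liver. It was the 1 called gene of 22 in fatty acid and triglyceride synthesis, of which 20 were at or below 0, with a median of -0.46. Scd1, the stearoyl-CoA desaturase gene, was at 6443, 14950 and 6031 CPM against 4698, 10838 and 5217 CPM, with groups that overlapped (-0.40, adjusted p = 0.816). Fatty acid oxidation stood at a median of 0.00 with 0 of 26 called by edgeR or DESeq2 (3 at unadjusted p below 0.05). Lipid uptake and droplet genes had 0 of 22 called by both tools (7 at unadjusted p below 0.05, median 0.17). Among them was the fatty acid binding protein gene Fabp1, at 6948, 5202 and 3248 CPM against 6259, 7219 and 9984 CPM (0.61, adjusted p = 0.599). Abcg8, the sterol export half-transporter, fell from 165, 154 and 226 CPM to 102, 102 and 103 CPM (-0.83, SE 0.20, adjusted p = 0.0352). That call was lost without the first or the third 3 µg/kg liver (0.0746 and 0.293) and without the first, second or the third 10 µg/kg liver (0.0979, 0.109 and 0.172). It was the 1 called member of 22 in cholesterol synthesis and sensing (median -0.34). The sterol desaturase gene Sc5d, at 500, 392 and 352 CPM against 275, 216 and 206 CPM (-0.84, adjusted p = 0.0868), passed in DESeq2 (0.039) and in the 6 libraries alone (0.0334).

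Few genes of amino acid and nitrogen metabolism were called. Afmid, the kynurenine formamidase of tryptophan breakdown, fell from 39.1, 33.7 and 56.9 CPM to 13.2, 12.1 and 9.32 CPM (log2 fold change -1.91, SE 0.33, adjusted p = 0.00249). This call held without any 1 liver. A gene on the same strand overlaps 44.2% of its exonic bases, so its counts are uncertain. Of its list of 21 tryptophan, NAD, tyrosine and histidine genes 21 were at or below 0, with a median of -0.52, and Afmid was the 1 called. The tyrosine-degrading Hpd was at 2477, 3063 and 2904 CPM against 1652, 2361 and 1619 CPM (-0.58, adjusted p = 0.447). All 9 urea cycle genes were at or below 0 (median -0.61). Of these, 0 were called by edgeR, 1 by DESeq2 and 2 in the 6 libraries alone, and 5 had an unadjusted p below 0.05. Cps1, which makes carbamoyl phosphate from ammonia, was at 2552, 2739 and 3066 CPM against 1361, 1916 and 1101 CPM, with groups that did not overlap (-0.93, SE 0.32, adjusted p = 0.199, and 0.0444 in the 6 libraries alone). In the one-carbon and methionine list 0 of 21 were called by edgeR and 1 by DESeq2 (7 at unadjusted p below 0.05, median -0.41), and Mat1a, the hepatic methionine adenosyltransferase gene, was at 2863, 3125 and 3149 CPM against 2407, 2535 and 1868 CPM (-0.42, adjusted p = 0.486).

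Summed hepatocyte markers stood at 133492 to 164426 CPM at 3 µg/kg, against 115782 to 143474 CPM at 10 µg/kg, and 13 of the 15 markers were at or below a log2 fold change of 0 (median -0.31). Of these markers 0 were called by edgeR and 1 by DESeq2 (2 at unadjusted p below 0.05). In bulk liver, fewer cells of a type and less RNA per cell cannot be told apart. The part of hepatocyte share in the metabolic genes that fell was not tested.

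**Figure D4:**
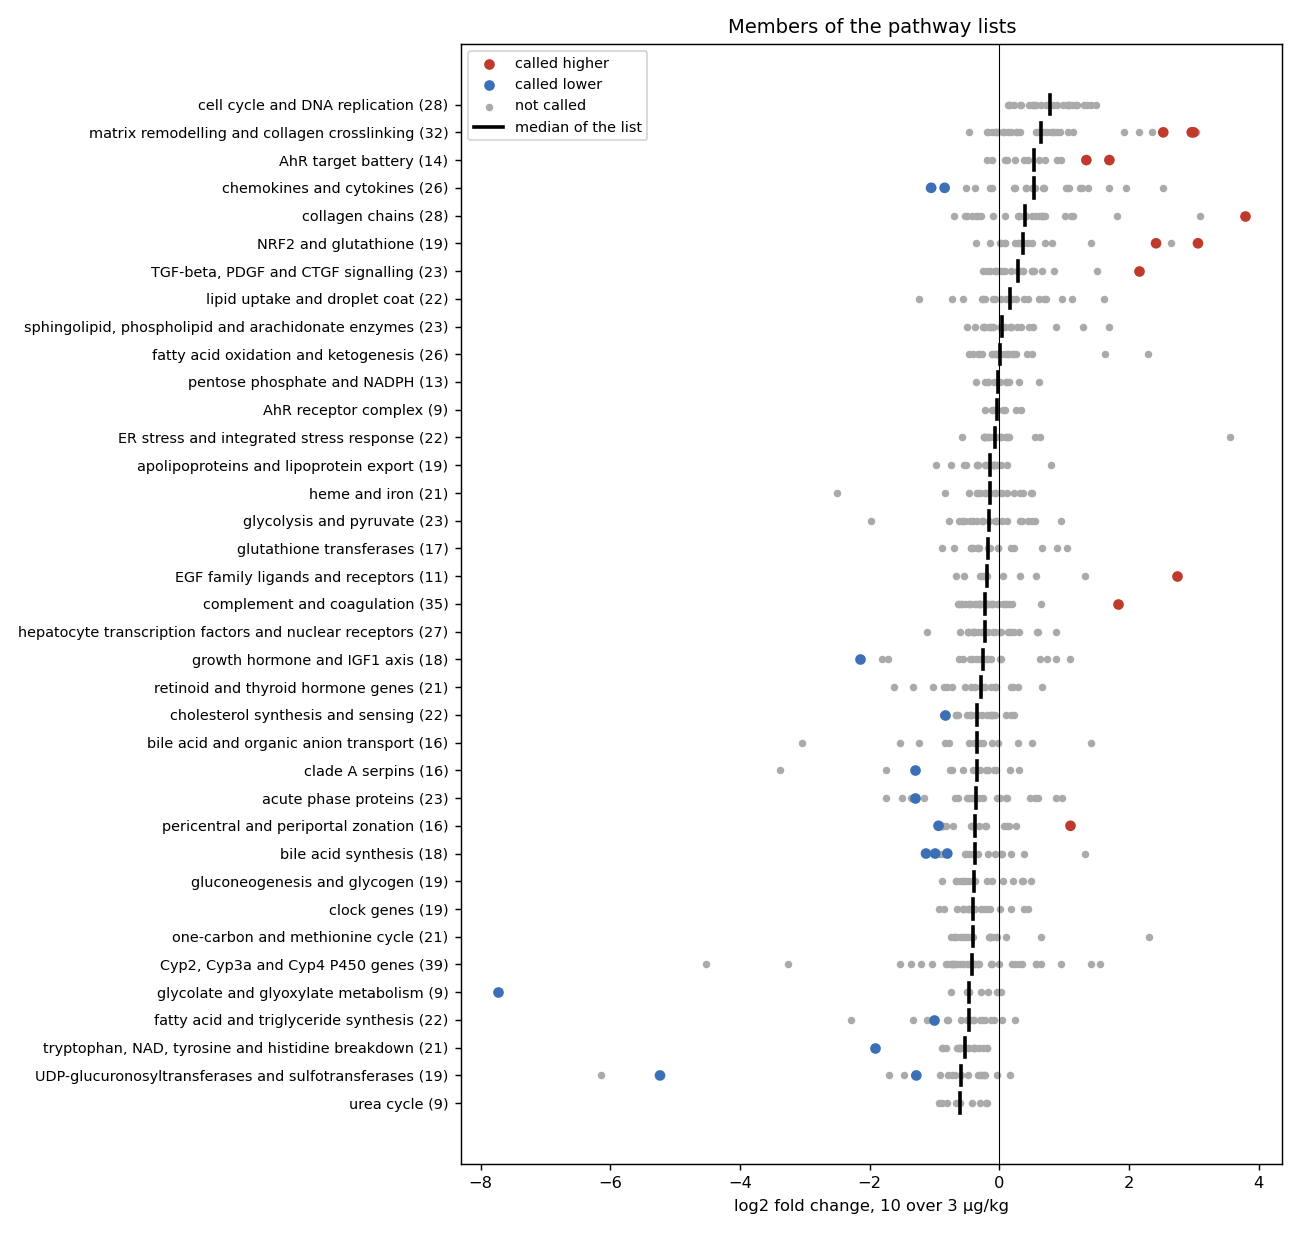
Log2 fold change (10 over 3 µg/kg) of every tested member of the 37 pathway lists, with the number tested in parentheses and lists ordered by their median. Red and blue points are called members, grey points those not called, and black bars the medians. Cell cycle genes have the highest median, 0.79, with no call, and the urea cycle the lowest, -0.61.

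Matrix genes had more positive than negative values and a few strong rises. Of 32 matrix remodelling and crosslinking genes 3 rose and 0 fell, and the median log2 fold change was 0.64. Mmp13, a collagenase, went from 0.489, 0.617 and 0.925 CPM to 3.71, 3.66 and 9.87 CPM (3.00, SE 0.51, adjusted p = 0.00174). Mmp12, the macrophage elastase, went from 0.652, 1.94 and 1.12 CPM to 8.15, 5.33 and 15.1 CPM (2.97, SE 0.65, adjusted p = 0.0244). Mmp7, or matrilysin, went from 0.571, 0.882 and 0.539 CPM to 2.54, 3.90 and 4.81 CPM (2.53, SE 0.60, adjusted p = 0.0476), and 11.5% of its exonic bases overlap a gene on the other strand. The groups were apart for each protease. Mmp13 held without any 1 liver, Mmp12 was lost without the first, second or the third 3 µg/kg liver (0.145, 0.053 and 0.164) or the third 10 µg/kg liver (0.167), and Mmp7 without the first, second or the third 3 µg/kg liver (0.179, 0.112 and 0.261) or the second or the third 10 µg/kg liver (0.099 and 0.219). The median of the list was 0.35 without the third 10 µg/kg liver.

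Col9a2 was the 1 called of 28 collagen chains (median 0.40, and 0.21 without the third 10 µg/kg liver). The fibril collagen genes Col1a1 and Col1a2, named after their values were seen, did not pass. Col1a1 was at 9.38, 19.7 and 14.5 CPM against 41.1, 29.6 and 82.1 CPM (log2 fold change 1.81, SE 0.47, adjusted p = 0.0708). It passed in DESeq2 (0.0159) and with non-robust dispersion (0.0386). Col1a2 was at 17, 31 and 23.4 CPM against 44.8, 38.1 and 74.5 CPM (1.14, SE 0.31, adjusted p = 0.0835). It passed in DESeq2 (0.0183). The third 10 µg/kg liver was the highest for both. Col18a1, the chain with the highest CPM and the source of endostatin, was at 1002, 967 and 1001 CPM against 790, 645 and 657 CPM (-0.50, adjusted p = 0.4). Summed stellate cell and fibroblast markers, which include collagen genes, stood at 442 to 554 CPM at 3 µg/kg, against 574 to 792 CPM at 10 µg/kg. Of these 18 markers 0 were called by edgeR and 3 by DESeq2, with 6 at unadjusted p below 0.05, and 14 were positive. Their part in the matrix values was not tested.

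Of the growth factor lists, 1 ligand gene rose in each and 0 genes fell. Tgfb2, a transforming growth factor beta ligand, went from 1.71, 2.65 and 3.04 CPM to 11.8, 8.95 and 12.9 CPM (log2 fold change 2.16, SE 0.35, adjusted p = 0.000957), the 1 called of 23 in its signalling list (median 0.29, and 0.08 without the third 10 µg/kg liver). Nrg1, neuregulin, a ligand of ERBB3 and ERBB4, went from 0.571, 1.15 and 0.616 CPM to 3.67, 3.90 and 7.68 CPM (2.75, SE 0.40, adjusted p = 0.000238), the 1 called of 11 EGF family genes. Both calls held without any 1 liver. The neuregulin receptor gene Erbb3 was at 264, 265 and 252 CPM against 204, 226 and 219 CPM (-0.27, adjusted p = 0.667).

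Of 16 markers of recruited macrophages and monocytes 3 rose, 0 fell and 16 were positive (median 0.63), and their summed level was 146 to 178 CPM at 3 µg/kg, against 229, 230 and 459 CPM in the first, second and the third 10 µg/kg livers. Spp1, given below, counts in this sum and in the bile duct sum, so these sums are not separate observations. The risen genes were Gpnmb, Mmp12 and Trem2, a receptor of lipid-associated macrophages that went from 0.571, 0.617 and 0.578 CPM to 1.67, 1.39 and 3.88 CPM (log2 fold change 1.97, SE 0.50, adjusted p = 0.04995). The Trem2 call was lost without the first, second or the third 3 µg/kg liver (0.175, 0.142 and 0.237) or the third 10 µg/kg liver (0.435), and without that last liver 0 of the 16 markers were called. Lyz2, the myeloid lysozyme gene, was at 47.5, 52.3 and 74.9 CPM against 65.6, 64.7 and 105 CPM (0.43, adjusted p = 0.851). Kupffer cell markers, those of resident macrophages, summed to 761 to 789 CPM against 585 to 773 CPM, with 2 of 11 positive and 0 called by edgeR or DESeq2 (1 at unadjusted p below 0.05). The Kupffer gene Cd5l was at 165, 169 and 178 CPM against 118, 152 and 180 CPM (-0.19, adjusted p = 0.938).

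Neutrophil markers were all positive, 12 of 12, with a median log2 fold change of 1.53, but 0 were called by edgeR or DESeq2 and 2 had an unadjusted p below 0.05. Their sum was 17.4, 17.8 and 10.3 CPM at 3 µg/kg, against 21.7, 33.9 and 66.2 CPM at 10 µg/kg, and the median was 0.61 without the third 10 µg/kg liver. The calprotectin genes S100a8 and S100a9 followed that order within each dose, and S100a8 overlapped between doses. S100a9 was at 4.08, 4.94 and 2.54 CPM against 6.15, 11.6 and 17.6 CPM (1.65, SE 1.00, adjusted p = 0.602), and S100a8 at 3.42, 4.14 and 0.693 CPM against 3.14, 7.79 and 14.7 CPM (1.75, SE 1.06, adjusted p = 0.602). C5ar1, the receptor of the complement fragment C5a on myeloid cells, rose from 1.71, 2.73 and 2.12 CPM to 4.28, 5.15 and 13.9 CPM (1.83, SE 0.45, adjusted p = 0.0459). It was the 1 called of 35 complement and coagulation genes (median -0.21), and its call was lost without the first, second or the third 3 µg/kg liver (0.198, 0.0938 and 0.21) or the third 10 µg/kg liver (0.479). The liver-made C3 was at 8774, 9876 and 9544 CPM against 7418, 8557 and 10335 CPM (-0.10, adjusted p = 0.947).

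Among 26 chemokine and cytokine genes 19 were positive (median 0.53), yet the 2 called were lower. Ccl9, a macrophage chemokine, fell from 70.8, 58.1 and 58.7 CPM to 32, 44.2 and 28.3 CPM (log2 fold change -0.84, SE 0.19, adjusted p = 0.018). Il18, an inflammasome-processed cytokine, fell from 10.8, 12.3 and 10.3 CPM to 4.28, 7.88 and 3.97 CPM (-1.05, SE 0.25, adjusted p = 0.0345). The call of Ccl9 was lost without the first or the third liver of either dose (adjusted p from 0.0549 to 0.215). That of Il18 was lost without the first, second or the third 3 µg/kg liver (0.0983, 0.146 and 0.105) or the first or the third 10 µg/kg liver (0.147 and 0.314). Spp1, osteopontin, was at 43.5, 50.3 and 40.7 CPM against 58.5, 60.9 and 165 CPM (1.08, adjusted p = 0.149). It passed in DESeq2 (0.0467) and 18.8% of its exonic bases overlap a gene on the same strand. Serpina3m, a secreted serpin of the acute phase, fell from 224, 240 and 249 CPM to 112, 110 and 67.6 CPM (-1.30, SE 0.25, adjusted p = 0.00465), a call lost without the third 10 µg/kg liver (0.0735). It was the 1 called of 23 acute phase genes (median -0.36) and of 16 clade A serpins (median -0.35).

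**Figure D5:**
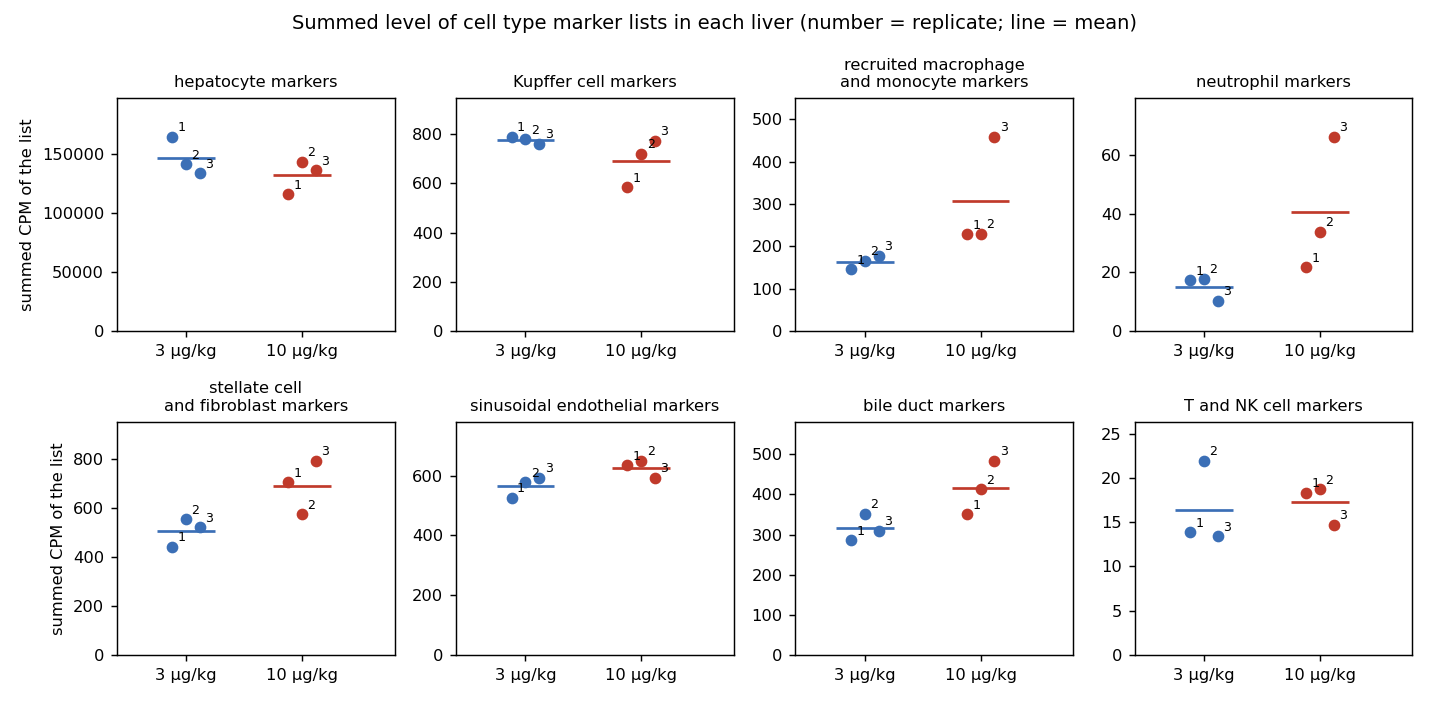
Summed CPM of 8 cell type marker lists in each liver, from 0, with replicate numbers beside the points, blue for 3 µg/kg and red for 10 µg/kg, and lines at the means. The macrophage, neutrophil and stellate sums do not overlap between doses and are highest in the third 10 µg/kg liver, while hepatocyte, Kupffer and T and NK cell sums overlap.

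Few markers of other cell types were called. Over all genes tested 1.06% were called, 51.0% were positive and 11.3% had an unadjusted p below 0.05 (edgeR). Bile duct markers summed to 286, 352 and 310 CPM against 351, 413 and 485 CPM, with 11 of 13 positive (median log2 fold change 0.63), 0 called by edgeR, 1 by DESeq2 and 3 at unadjusted p below 0.05. Their sum shares Spp1, highest in the third 10 µg/kg liver, with that of the recruited macrophage markers. Sinusoidal endothelial markers summed to 527 to 593 CPM against 593 to 650 CPM, with 0 of 16 called by both tools (1 at unadjusted p below 0.05). Dendritic cell and MHC class II genes had 13 of 13 positive, at a median of 0.32 with 0 called by both tools and 0 at unadjusted p below 0.05. Of 14 B cell and 16 T and NK cell markers 0 were called by both tools, with 0 and 1 at unadjusted p below 0.05. The same holds for 10 erythroid and platelet, 3 adipocyte, 3 muscle, 8 mesothelial and 12 ribosomal and stress RNA genes, of which 0 were called by both tools, with 2, 2, 0, 0 and 0 at unadjusted p below 0.05. Adipocyte markers, 6 of 9 of them with counts, summed to 567, 519 and 770 CPM against 285, 177 and 162 CPM, without overlap. Of the 3 tested, 2 were positive: Cidec had a log2 fold change of 1.62 (adjusted p = 0.149) and Fabp4 0.38 (0.602). Only Car3, a carbonic anhydrase gene, was lower, at -1.65 (0.155), so the lower sum does not stand for the list as a whole. The 14 acinar markers of the pancreas summed to 10.8, 14.2 and 13.8 CPM against 31.8, 86.4 and 41.8 CPM. Pnliprp1, which encodes a relative of pancreatic lipase, rose from 5.46, 8.20 and 7.82 CPM to 26, 79.2 and 35.9 CPM (log2 fold change 2.71, SE 0.51, adjusted p = 0.00909). Of the acinar markers 6, among them Cpa1 and Cel, had no counts in any of the 6 livers and 4 were tested, and Pnliprp1 was the 1 called. That call was lost without the first or the third 3 µg/kg liver (0.0746 and 0.0576) or the second 10 µg/kg liver (0.0505).

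Cell cycle and DNA replication genes were positive in 28 of 28, with a median log2 fold change of 0.79 that ranged from 0.63 to 1.05 over the alternatives. Of these, 12 had groups that did not overlap (21.1% of all genes tested did not). Still, 0 were called by edgeR or DESeq2, and 6 had an unadjusted p below 0.05 (11.3% of all genes tested did). The proliferation marker gene Mki67, named after its values were seen, was at 4.65, 1.41 and 3.93 CPM against 4.58, 6.77 and 15.8 CPM (1.42, SE 0.66, adjusted p = 0.42).

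Cdh1, the gene of E-cadherin, which is richer around portal tracts, rose from 39.1, 41.6 and 48.6 CPM to 86.0, 84.3 and 107 CPM (log2 fold change 1.10, SE 0.23, adjusted p = 0.0117). Lect2, a secreted liver protein gene of the same zonation list, fell from 88.7, 83.4 and 82.8 CPM to 56.8, 41.0 and 35.2 CPM (-0.94, SE 0.23, adjusted p = 0.0459). They were the 2 called of 16. The Cdh1 call was lost without the first or second 3 µg/kg liver (0.0876 and 0.0677) or the third 10 µg/kg liver (0.0933). The Lect2 call was lost without the first, second or the third 3 µg/kg liver (0.169, 0.125 and 0.138) or the second or the third 10 µg/kg liver (0.149 and 0.364), and with RLE or upper-quartile factors (0.0535 and 0.0754).

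In the remaining lists edgeR called no member except Mup3, on the growth hormone and IGF1 list of 18. Over all genes tested 1.06% were called and 11.3% had an unadjusted p below 0.05. The counts at unadjusted p below 0.05 were 3 of 19 for clock genes (median log2 fold change -0.41), 8 of 19 for gluconeogenesis and glycogen (-0.39), 5 of 21 for retinoid and thyroid hormone genes (-0.28), 4 of 27 for hepatocyte transcription factors and nuclear receptors (-0.22) and 6 of 23 for glycolysis (-0.15). They were 5 of 21 for heme and iron (-0.15), 3 of 19 for apolipoproteins (-0.14), 2 of 22 for endoplasmic reticulum stress (-0.07), 2 of 13 for pentose phosphate genes (-0.02) and 3 of 23 for sphingolipid and arachidonate enzymes (0.04). DESeq2 called 1 member each of the retinoid, heme, stress and sphingolipid lists and 0 of the other 6. The 6 reference genes had a median of -0.12, and 0 were called by either tool or at unadjusted p below 0.05.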

How the data were processed

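RNA from whole liver was sequenced. The authors deposited raw read counts per gene, 1 table per library. Per the submitters' processing notes they used FastQC 0.11.2, cutadapt 1.4.1, TopHat 1.4.1, SAMtools 0.1.19 and HTSeq 0.6.1 on GRCm38. How strand was used and which annotation was counted is not given here. Each table had 41388 gene identifiers, 40254 of them matched to symbols and coordinates in GENCODE M21, and 5 summary lines that were left out. In the 6 livers 2.03% to 3.12% of reads lay on more than 1 gene, out of those on 1 gene, on more than 1 or on none.

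Counts were fitted in R 4.3.3 with edgeR 4.0.16: filterByExpr (minimum 10), TMM, and a robust quasi-likelihood model of all 9 groups with 18 residual degrees of freedom, contrast 10 minus 3 µg/kg, Benjamini-Hochberg adjustment over 15121 genes, threshold 0.05. Standard errors are the log2 fold change divided by the square root of F. P-values measure the spread between these livers. On simulated counts of 14997 genes with 200 changed, this comparison found 22.8% of the genes changed 1.5-fold, 75.9% of those changed 2-fold and 100% of those changed 4-fold, and 5.30% of its calls were false. The changed genes were drawn only from those with a mean of at least 1 CPM. The spread of every gene was scaled by a single median value, so genes or livers that vary more were not simulated. These rates therefore need not hold for the real counts. Replicate libraries differed beyond counting noise.

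Named genes are the AhR battery, Ahr and Arnt, the 12 largest rises and falls (called, mean of at least 1 CPM, no overlap, no predicted models), and from each list at most 4 members that were called and 2 that were not, some of them left unprinted. Of the AhR battery, 1 member is not reported here. The 54 lists were 37 pathway and 17 marker lists, and 950 of 953 symbols matched. The comparison, members and lists were chosen with earlier results of these data known. Alternatives were DESeq2 1.42.0, other factors, filters, thresholds and sets of libraries, a replicate block, and leaving out each liver.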

Additional observations from a re-analysis of the deposited data

How the results depend on the processing

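The 160 calls depended most on which livers and groups were fitted. Leaving out each of the 6 livers in turn gave 71 to 130 calls, 50 to 95 of them higher and 16 to 39 lower. A fit of the 6 libraries alone gave 341 (178 higher, 163 lower) and a fit without the 1 µg/kg group 246 (166 higher). The fit of the 6 libraries alone kept 133 of the 160 calls. An adjusted p below 0.01 left 69 (50 higher, 19 lower). DESeq2 called 95 genes lower, and the 12 libraries of the 0.3 to 10 µg/kg groups alone gave 37 lower. The cause was not tested. The same counts lay within 1.5 times of the main ones with RLE factors (157 calls), upper-quartile factors (161), no low-count filter (152), a filter of 1 CPM in 3 libraries (154), without the shallow second library of the 0.3 µg/kg group (142), with non-robust dispersion (164) and at 2-fold or more (133).

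Of the 59 called genes named here, 26 held without any 1 liver, and all 59 kept their direction under every setting that gave a value. Of the uncalled genes printed here, 3 changed sign: Ugt1a6b without the first 3 µg/kg liver (-0.0082) or the third 10 µg/kg liver (-0.0054, with up to 0.19 without other livers), Scd1 without the second 3 µg/kg liver (0.16, range over livers left out -0.88 to 0.16) and C3 without the first 10 µg/kg liver (0.0047, range -0.22 to 0.0047). With upper-quartile factors the median over all genes was 0.06 in place of 0.01.

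The replicate numbers did not pair the samples: deviations of same-numbered livers correlated at -0.22, 0.14 and -0.25, the highest correlation was 0.42, between the third 3 and first 10 µg/kg livers, and not every liver correlated best with its own number. A replicate block gave 167 calls (107 higher, 60 lower). With 3 livers a group, changes under 2-fold were often missed in simulated counts, and depth limits genes below 1 CPM, which made up 11 of the rises and 9 of the falls.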

Other observations

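Another 4 genes that rose were chosen after their values were seen. Spint1, which encodes the inhibitor that binds matriptase, the product of St14, went from 1.63, 2.56 and 1.31 CPM at 3 µg/kg to 13.6, 19 and 25.9 CPM at 10 µg/kg (edgeR, log2 fold change 3.46, SE 0.30, adjusted p = 6.78e-08). F2rl1, the gene of the protease-activated receptor PAR2, went from 1.47, 2.12 and 1.54 CPM to 6.95, 6.96 and 6.58 CPM (2.01, SE 0.34, adjusted p = 0.00147). Ap1m2, a clathrin adaptor subunit gene, went from 1.39, 2.91 and 2.08 CPM to 14.5, 25 and 23.3 CPM (3.30, SE 0.32, adjusted p = 3.52e-07). Trpv4, a cation channel gene, went from 3.34, 5.11 and 3.39 CPM to 33, 27.7 and 32.4 CPM (2.99, SE 0.29, adjusted p = 2.45e-07). None of the livers overlapped between doses in these 4 genes, and each call held without any 1 of the 6 livers.

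Genes with no counts in 1 of the doses were also called. Disp3 had 0 counts in the 3 livers at 3 µg/kg and 44 at 10 µg/kg, at least 2.99-fold higher when 3 counts are taken as the limit in each library, but its adjusted p was 0.0387 in edgeR and 0.896 in DESeq2. Its call was lost without the first, second or the third 3 µg/kg liver (0.0988, 0.089 and 0.195) and without the second or the third 10 µg/kg liver (0.0793 and 0.101). Ube2u, a ubiquitin-conjugating enzyme gene, had 16 counts at 3 µg/kg and 0 at 10 µg/kg, at least 3.15-fold lower (adjusted p = 0.0105), and was lost without the first 3 µg/kg liver (0.0886) or the third 10 µg/kg liver (0.0532). Trhde, the gene of the enzyme that degrades thyrotropin-releasing hormone, had 18 and 0 counts, at least 3.06-fold lower (adjusted p = 0.0455), and was lost whichever of the 6 livers was left out (0.0826 to 0.192). These bounds cover counting error only.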
